A study of Mus musculus with 15 samples.

Results

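The genes described here encode the proteases that digest the extracellular matrix of the liver and the inhibitors that hold these proteases in check. They are 44 of the 19938 genes of the array that carry 1 symbol in its annotation, and they comprise 22 matrix metalloproteinases (MMP), 18 ADAMTS proteases and the 4 tissue inhibitors of metalloproteinases (TIMP), chosen by their symbols alone and each read from its brightest transcript cluster. Adamts2 and Mmp15 are not analysed here. The 15 arrays carried RNA from livers of C57BL/6J males, 3 arrays in each of 5 groups. These were a basal diet group killed at 38w, an Ath+HF group (a diet named Ath and HF in the labels, for atherogenic and high-fat) killed at 38w or 68w, and an Ath+HF+BCAA group whose Ath+HF diet contained 3% branched-chain amino acids (BCAA), also killed at 38w or 68w. The diets began after weaning at week 8 and lasted 30 weeks in the 38w groups and 60 weeks in the 68w groups. No allele, transgene or further agent is named for any group.

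MMPs are zinc proteases secreted as inactive proenzymes or held on the cell surface, and between them they cut fibrillar collagen, basement membrane, elastin and many growth factors and receptors. ADAMTS proteases are secreted relatives with thrombospondin repeats that trim proteoglycans, mature procollagens or cut single blood proteins. TIMPs bind the active site of these enzymes, and in the scarring liver stellate cells and myofibroblasts are known for making Timp1 and Timp2 beside Mmp2, while macrophages are a known source of elastase and collagenase.

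The values are log2 signals after robust multi-array averaging (RMA), so a difference of 1 is a doubling, and levels can be compared between groups for 1 gene but not between genes. Array medians lay between 6.91 and 7.16, and 25 of the 44 genes had every group mean below 7.37, the median of all group means of all genes. limma compared the groups in a fit of all 15 arrays, and a gene was called higher or lower at a Benjamini-Hochberg adjusted p under 0.05 over all 19938 genes. Precision is limited by the 3 arrays per group, and no source states that the arrays of a group came from different mice, so that the p-values measure a spread that may be technical. No basal diet array was of 68w. In any comparison of 68w with 38w arrays, age, duration of feeding and batch therefore cannot be told apart. Where the 68w groups are set against basal 38w, the diet differs as well and cannot be told apart from these. Every direction rests on the labels of the arrays. No value in the files checks which diet a 68w array belonged to, and were the names of these groups swapped, each difference between them would change sign (this was not tested). By quantitative RT-PCR the study reported Timp2, Col1a2 and Pdgfrb mRNA as raised on Ath+HF and repressed with BCAA. It reported the same for α-SMA (Acta2) mRNA and for EpCAM expression. From its GeneChip data it reported many inflammation and fibrosis genes as rising from 38w to 68w on Ath+HF and as repressed by BCAA. Between the 68w arrays as labelled Timp2, Col1a2, Pdgfrb, Acta2 and Epcam were higher with BCAA, as were 6 of 7 macrophage markers. All 7 of these markers were lower on Ath+HF 68w than on Ath+HF 38w. The reason for the opposite direction was not tested. Hepatocyte markers were bright in all groups, with a log2 summed signal from 16.04 to 16.26 over the arrays.

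In the mouse genome 10 of the MMP genes follow each other on chromosome 9 in the order Mmp13, Mmp12, Mmp1b, Mmp3, Mmp1a, Mmp10, Mmp8, Mmp27, Mmp20 and Mmp7, with no other protein-coding gene between them. Promoter sequences of 30 of the 44 genes were in the RefSeq table used (GRCm38.p6), and their 250 bases before the annotated start were searched on both strands. The letters TGANTCA are the consensus of AP-1, the transcription factor of Fos and Jun proteins. They were found in 8 of the 12 promoters of the chromosome 9 cluster (8 genes) and in none of the 21 promoters of the other 20 genes. Of all 32851 promoters 6.75% held them. The sequences here are the 120 bases before the start of 4 cluster genes that were called higher on the Ath+HF 38w arrays (Mmp13, Mmp12, Mmp7 and Mmp27) and of 2 that were not (Mmp3 and Mmp10), with TGANTCA in capitals. For Mmp12 and Mmp7, which have 2 starts each in the table, the start with a match is shown, and the other start holds none.
Mmp13, chr9:7272394-7272513, plus strand: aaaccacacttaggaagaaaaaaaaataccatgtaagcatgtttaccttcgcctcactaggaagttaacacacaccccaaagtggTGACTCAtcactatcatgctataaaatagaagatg
Mmp12, chr9:7347254-7347373, plus strand: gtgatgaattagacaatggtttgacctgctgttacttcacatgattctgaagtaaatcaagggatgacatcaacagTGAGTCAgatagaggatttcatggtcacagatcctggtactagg
Mmp7, chr9:7691970-7692089, plus strand: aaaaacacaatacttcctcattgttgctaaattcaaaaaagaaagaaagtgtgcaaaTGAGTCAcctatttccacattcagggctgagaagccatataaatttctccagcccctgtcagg
Mmp27, chr9:7571276-7571395, plus strand: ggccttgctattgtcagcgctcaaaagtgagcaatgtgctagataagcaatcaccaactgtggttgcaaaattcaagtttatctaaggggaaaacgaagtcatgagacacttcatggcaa
Mmp3, chr9:7445702-7445821, plus strand: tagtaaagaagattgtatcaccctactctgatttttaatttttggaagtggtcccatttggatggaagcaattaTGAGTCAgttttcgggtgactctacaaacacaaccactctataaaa
Mmp10, chr9:7502222-7502341, plus strand: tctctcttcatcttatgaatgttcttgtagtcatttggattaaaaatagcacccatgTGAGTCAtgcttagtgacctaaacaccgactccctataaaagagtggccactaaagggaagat
The match began 35 bases before the start of Mmp13, 44 before the second start of Mmp12, 63 before the first of Mmp7, 46 before Mmp3 and 63 before Mmp10, whereas the window of Mmp27 holds none. The letters were thus present both in genes that moved between groups and in neighbors that did not move with them. The GC box letters GGGCGG (or CCGCCC on the other strand), which bind Sp factors, were found in 32.7% of all promoters. These letters were in none of the cluster promoters and in 14 of the 21 promoters of the other 20 genes. They are shown in capitals for the 3 inhibitors on which the results below turn, and a match is only a match of letters.
Timp1, chrX:20870046-20870165, plus strand: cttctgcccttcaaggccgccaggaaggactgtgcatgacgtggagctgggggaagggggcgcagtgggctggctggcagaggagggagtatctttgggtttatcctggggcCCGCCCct
Timp2, chr11:118355412-118355531, minus strand: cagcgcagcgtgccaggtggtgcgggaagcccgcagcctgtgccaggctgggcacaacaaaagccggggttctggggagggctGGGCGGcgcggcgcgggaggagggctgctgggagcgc
Timp3, chr10:86300292-86300411, plus strand: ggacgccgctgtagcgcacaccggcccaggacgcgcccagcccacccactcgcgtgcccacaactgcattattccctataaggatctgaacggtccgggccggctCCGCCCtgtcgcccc

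On the Ath+HF 38w arrays a macrophage elastase, a collagenase, a gelatinase and Timp1 were among the genes called higher than on basal diet. No gene of the family was called lower. Mmp12, the elastase of macrophages, was at 7.03, 7.44 and 6.502 on the basal diet arrays and at 10.20, 10.29 and 10.28 on the Ath+HF 38w arrays. The groups lay far apart, and the difference of 3.27 (standard error 0.33, a fold of 9.63, adjusted p = 7.68e-05 from limma) was the largest of the 44. Timp1, a soluble inhibitor of most MMPs, was at 6.41, 5.82 and 6.40 on the basal diet arrays and at 7.55, 7.97 and 7.72 on the Ath+HF 38w arrays. Again no array of either group reached the other, and Timp1 rose by 1.53 (standard error 0.24, adjusted p = 0.00185 from limma). Mmp13, the interstitial collagenase of rodents, was at 6.41, 6.33 and 6.54 on the basal diet arrays and at 8.04, 7.85 and 7.94 on the Ath+HF 38w arrays, a rise of 1.52 (standard error 0.18). Mmp2, gelatinase A of stellate cells and fibroblasts, went from 7.77, 7.63 and 7.77 to 8.47, 8.54 and 8.56, a rise of 0.80 (standard error 0.14). Both were well outside the spread of their arrays. The other genes called higher were Mmp27 (0.85, standard error 0.16), Mmp7, or matrilysin, a protease of epithelia (0.83, standard error 0.15), and Adamts12, which cuts cartilage oligomeric matrix protein (0.56, standard error 0.12).

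In all, 7 of the 44 genes were called in Ath+HF 38w against basal 38w, which is 15.9% of them, and all 7 were higher, while 4.23% of all genes were called (3.05% higher and 1.18% lower). By class these were 5 of 22 MMP genes, 1 of 18 ADAMTS genes and 1 of 4 TIMP genes. The median difference of the 44 genes was 0.11, beside 0.00 over all genes. Timp2, the inhibitor that also helps activate Mmp2, had a difference of 0.60 (standard error 0.17) and missed the call with an adjusted p = 0.0589 from limma, Timp3, which stays bound to the matrix, was at 0.11 and Timp4 at 0.00. Adamts12 lost its call without basal 38w replicate 3, without Ath+HF 38w replicate 2, and in a fit of both groups alone.

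The Ath+HF+BCAA 38w arrays showed nearly the same list against the same basal diet arrays, which both comparisons share. Here also 7 genes were called, all of them higher, against 5.49% of all genes called (3.67% higher and 1.82% lower). Mmp12 was at 10.27, 9.45 and 10.31, a difference of 3.02 from basal diet (standard error 0.33). Timp1 was at 8.26, 6.95 and 7.71 (1.43, standard error 0.24), and Mmp13 at 7.73, 7.08 and 7.62 (1.05, standard error 0.18). Mmp2 was at 8.69, 8.02 and 8.64 (0.72, standard error 0.14). In each of these 4 genes replicate 2 was the lowest array of the group, while all arrays stayed above the basal diet group. Mmp7 (0.96, standard error 0.15), Mmp27 (0.82, standard error 0.16) and Adamts5, an aggrecanase (0.60, standard error 0.16), completed the list. In a fit of both groups alone only Mmp12, Mmp13 and Mmp7 remained called. Adamts5 also lost its call with array medians set equal, quantile normalization, array weights or a replicate block, and when any 1 of 4 arrays was left out. Timp2 was at 0.48, Timp3 at -0.12 and Timp4 at -0.21, none of them called.

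Between Ath+HF+BCAA 38w and Ath+HF 38w no member was called, and 0% of all genes were called. By limma 4 members had an unadjusted p under 0.05, all of them lower with BCAA. Arrays did not overlap in 4 members, all lower (Adamts12, Adamts13, Mmp13 and Mmp9), beside 11.1% of all genes. The members with an unadjusted p under 0.05 were Adamts13, the protease of von Willebrand factor (-0.40), Mmp23, a membrane-anchored MMP (-0.39), Mmp13 (-0.47) and Adamts14, a procollagen N-proteinase (-0.30), and are named here after their values were seen. Analysis of variance with Bonferroni's method over the pairs of groups, without adjustment over genes, called 1 member. The 95% interval of the difference ran from -0.62 to 0.41 for Timp1, from -0.48 to 0.24 for Timp2 and from -0.94 to 0.45 for Mmp12.

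On the arrays labelled Ath+HF 68w, 6 of the 7 genes called higher on Ath+HF 38w were lower than at 38w, and Adamts12 was not called (-0.21, adjusted p = 0.179 from limma). Of the 7 only Adamts12 was called higher than on basal diet, while the arrays of Mmp7 still lay above all basal diet arrays without a call (0.36, adjusted p = 0.0646 from limma). Mmp12 was at 6.19, 7.35 and 7.65, Mmp13 at 6.40, 6.59 and 6.54, Mmp2 at 7.55, 7.52 and 7.55, and Timp1 at 6.05, 6.07 and 6.07. Against Ath+HF 38w, Mmp12 fell by 3.19 log2 units (standard error 0.33), Timp1 by 1.68 (standard error 0.24), Mmp13 by 1.43 (standard error 0.18), Mmp27 by 1.01 (standard error 0.16) and Mmp2 by 0.98 (standard error 0.14). Timp2 (-0.82, standard error 0.17), Adamts5 (-0.62, standard error 0.16), Mmp19 (-0.48, standard error 0.13) and Mmp7 (-0.46, standard error 0.15) were lower as well. Mmp3 and Mmp10, stromelysins 1 and 2, went the other way (0.60, standard error 0.17, and 0.55, standard error 0.12), and Adamts17 and Mmp21 were higher by 0.35 and 0.33. The count was 4 higher and 9 lower, with 37.6% of all genes called, 17.6% higher and 20% lower. With the array medians set equal it was 2 higher and 13 lower. The calls of Mmp3, Mmp7, Mmp19, Mmp21 and Adamts17 were lost when certain single arrays were left out. Arrays did not overlap between these groups in 12 members that were higher and 11 that were lower, beside 52.1% of all genes.

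Against basal 38w the Ath+HF 68w arrays had 6 members higher and 1 lower, or 15.9% called, where 38.1% of all genes were called (19% higher, 19.1% lower). The family thus held fewer calls than the genes at large. Arrays did not overlap in 15 members that were higher and 2 that were lower, beside 50.1% of all genes. Mmp3 (0.57, standard error 0.17), Mmp14, the membrane-bound activator of Mmp2 (0.51, standard error 0.15), Adamts19 (0.36, standard error 0.11), Adamts12 (0.35, standard error 0.12), Adamts17 (0.34, standard error 0.10) and Mmp10 (0.34, standard error 0.12) were higher. Mmp1a, a mouse relative of interstitial collagenase, was lower (-0.54, standard error 0.15). These calls were not firm, since no member was higher and 2 were lower with the array medians set equal, and 3 members were called without Ath+HF 68w replicate 3 and 4 without replicate 2. Mmp1a was called with each array left out and in each limma alternative that tested it, but as a dim gene it was not tested in the one without dim genes. The differences of the TIMP genes from basal diet were -0.15 for Timp1, -0.21 for Timp2, 0.33 for Timp3 and -0.04 for Timp4, none of them called.

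Gelatinase A, macrophage elastase, matrilysin and 3 of the 4 inhibitors were among the genes called higher with BCAA at 68w, as the arrays are labelled. Of the 44 genes 16 were higher and 1 was lower, which is 38.6% called, beside 36.2% of all genes (19.8% higher and 16.4% lower). The share of calls was thus close to that of all genes, and 16 of the 17 calls were higher. The split was 16 higher and 3 lower with quantile normalization, 17 and 5 in a fit of both groups alone, and 19 and 8 with array weights. Arrays of these groups did not overlap in 21 members that were higher and 6 that were lower, beside 58.7% of all genes. The median difference was 0.13 for the 44 genes and -0.09 for all genes.

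Mmp12 reached 10.61, 9.997 and 10.51 on the Ath+HF+BCAA 68w arrays, which is 3.31 above Ath+HF 68w (standard error 0.33, a fold of 9.93, adjusted p = 1.21e-06 from limma). Mmp2 was at 10.20, 9.99 and 9.95, which is 2.50 higher (standard error 0.14, a fold of 5.67, adjusted p = 5.97e-09 from limma). Its arrays lay more than 2 log2 units above every Ath+HF 68w array and more than 1 unit above every other array of the study. Mmp7 was at 6.52, 6.61 and 6.68 on the Ath+HF 68w arrays and at 9.03, 9.05 and 8.89 on the Ath+HF+BCAA 68w arrays, a difference of 2.39 (standard error 0.15). For comparison, Mmp7 had been at 6.43, 6.30 and 5.99 on basal diet, at 6.81, 7.38 and 7.005 on Ath+HF 38w and at 7.41, 7.01 and 7.18 on Ath+HF+BCAA 38w. Its 68w values with BCAA therefore stood apart from all the others. Mmp27 rose from 6.501, 6.52 and 6.81 to 7.98, 8.30 and 7.88 (1.44, standard error 0.16). On the 38w arrays Mmp27 ran from 6.68 to 6.85 on basal diet, from 7.44 to 7.79 on Ath+HF and from 7.27 to 7.93 on Ath+HF+BCAA. Mmp13 was at 7.44, 6.73 and 7.49, so that replicate 2 lay near the Ath+HF 68w arrays, and its difference was smaller (0.71, standard error 0.18, adjusted p = 0.00692 from limma). Mmp8, the collagenase of neutrophils (0.85, standard error 0.20), Mmp9, or gelatinase B (0.55, standard error 0.16), and Mmp23 (0.54, standard error 0.15) were also higher. Replicate 2 was the highest array for Mmp8 (6.65, beside 5.69 and 5.84) and for Mmp9 (7.84, beside 7.09 and 6.94), and Mmp9 lost its call without that array or without Ath+HF 68w replicate 1. Mmp14 was at 0.32 (adjusted p = 0.107 from limma) and Mmp3 and Mmp10 were below 0 without a call.

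Of the 18 ADAMTS genes 5 were higher and 1 was lower, or 33.3% called, which is near the 36.2% of all genes. Adamts5 was at 6.53, 6.59 and 6.61 on the Ath+HF 68w arrays and at 8.20, 8.09 and 8.14 on the Ath+HF+BCAA 68w arrays, a difference of 1.57 (standard error 0.16). On the 38w arrays it was at 6.46, 6.69 and 6.82 on basal diet, 7.41, 7.28 and 6.92 on Ath+HF and 7.17, 6.96 and 7.64 on Ath+HF+BCAA, all of them lower than the 68w arrays with BCAA. Adamts10, known for its role in fibrillin microfibrils, rose from 7.63, 7.60 and 7.57 to 8.73, 8.76 and 8.54 (1.08, standard error 0.10), while the 9 arrays of 38w lay between 7.40 and 7.88. Adamts7, a further protease of cartilage oligomeric matrix protein, went from 8.17, 8.12 and 7.84 to 8.86, 8.71 and 8.99 (0.81, standard error 0.12), with the 38w arrays between 7.65 and 8.29. Adamts12 went from 6.94, 6.92 and 7.12 to 7.86, 7.70 and 7.56 (0.71, standard error 0.12). On the 38w arrays Adamts12 was at 6.85, 6.71 and 6.38 on basal diet, 7.10, 7.34 and 7.18 on Ath+HF and 7.02, 6.99 and 6.96 on Ath+HF+BCAA. For Adamts10, Adamts7 and Adamts12 as well, each Ath+HF+BCAA 68w array exceeded every other array. Adamts9, a versican protease, was 0.84 higher (standard error 0.18), and all 6 of its transcript clusters pointed the same way, from 0.41 to 1.83. Adamts13 was lower by -0.50 (standard error 0.08), at 7.37, 7.23 and 7.33 on the Ath+HF+BCAA 68w arrays and 7.81, 7.75 and 7.86 on the Ath+HF 68w arrays.

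Timp1, Timp2 and Timp3 differed more between the 68w groups than every protease but Mmp12, Mmp2 and Mmp7, whereas Timp4 was not called. Timp1 was at 8.22, 8.38 and 8.11 on the Ath+HF+BCAA 68w arrays, which is 2.17 above the Ath+HF 68w arrays (standard error 0.24, a fold of 4.51). Timp2 was at 8.11, 7.95 and 8.12 on Ath+HF 68w and at 9.82, 10.06 and 9.88 on Ath+HF+BCAA 68w, a difference of 1.86 (standard error 0.17, a fold of 3.64). Timp3 was at 9.02, 9.09 and 9.01 on Ath+HF 68w and at 10.66, 10.65 and 10.62 on Ath+HF+BCAA 68w, a difference of 1.60 (standard error 0.16, a fold of 3.04). For Timp2 and Timp3 no 38w array came near these values. Timp2 was at 8.45, 8.30 and 8.06 on basal diet, 8.74, 8.99 and 8.89 on Ath+HF 38w and 8.81, 8.29 and 9.16 on Ath+HF+BCAA 38w. Timp3 was at 8.82, 8.80 and 8.52 on basal diet, 8.82, 8.72 and 8.93 on Ath+HF 38w and 8.57, 8.18 and 9.03 on Ath+HF+BCAA 38w. Timp3 was thus the inhibitor that changed with BCAA at 68w but was not called in any comparison without those arrays. Timp4 was dim and nearly level, at 6.19, 5.89 and 5.70 on basal diet, 5.92, 6.06 and 5.83 on Ath+HF 38w, 5.79, 5.91 and 5.44 on Ath+HF+BCAA 38w, 5.87, 6.02 and 5.78 on Ath+HF 68w and 6.05, 6.10 and 6.44 on Ath+HF+BCAA 68w. Its difference of 0.31 between the 68w groups had an adjusted p = 0.114 from limma.

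**Figure D1:**
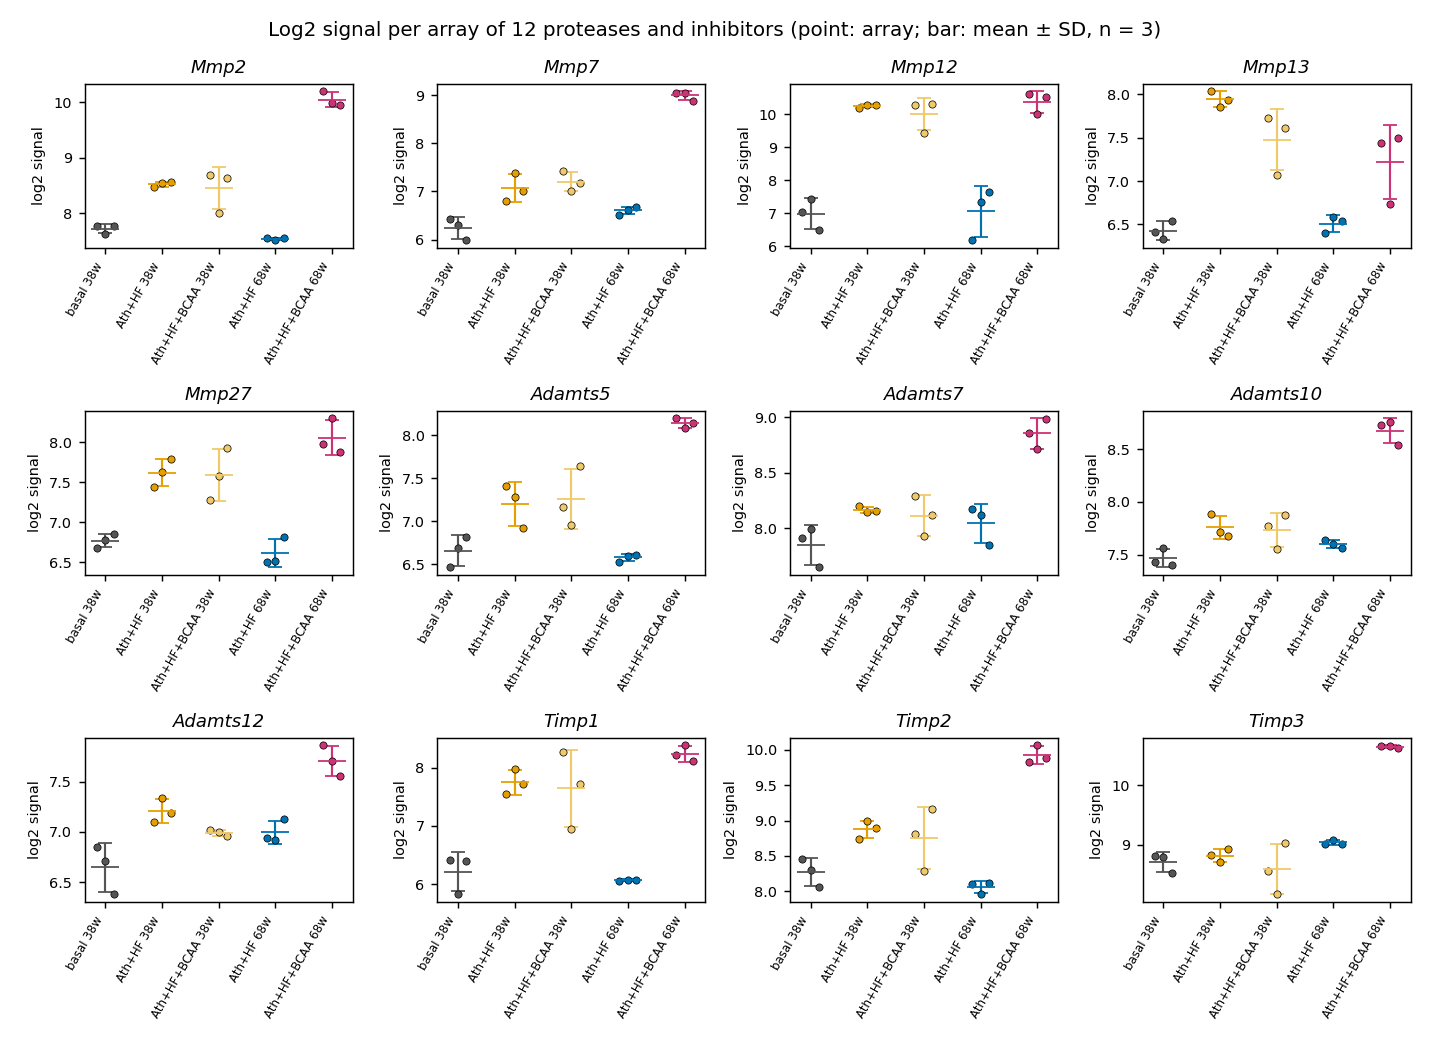
Log2 signal (vertical axes, each with its own range) of 5 MMP, 4 ADAMTS and 3 TIMP genes in the 5 groups (horizontal axes), with a point for each array and a bar for the mean ± SD (n = 3). The Ath+HF+BCAA 68w arrays are the highest of all for Mmp2, Mmp7, Adamts5, Adamts7, Adamts10, Adamts12, Timp2 and Timp3, whereas Mmp12 is as high at 38w on both Ath+HF diets and Mmp13 is highest on Ath+HF 38w.

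**Figure D2:**
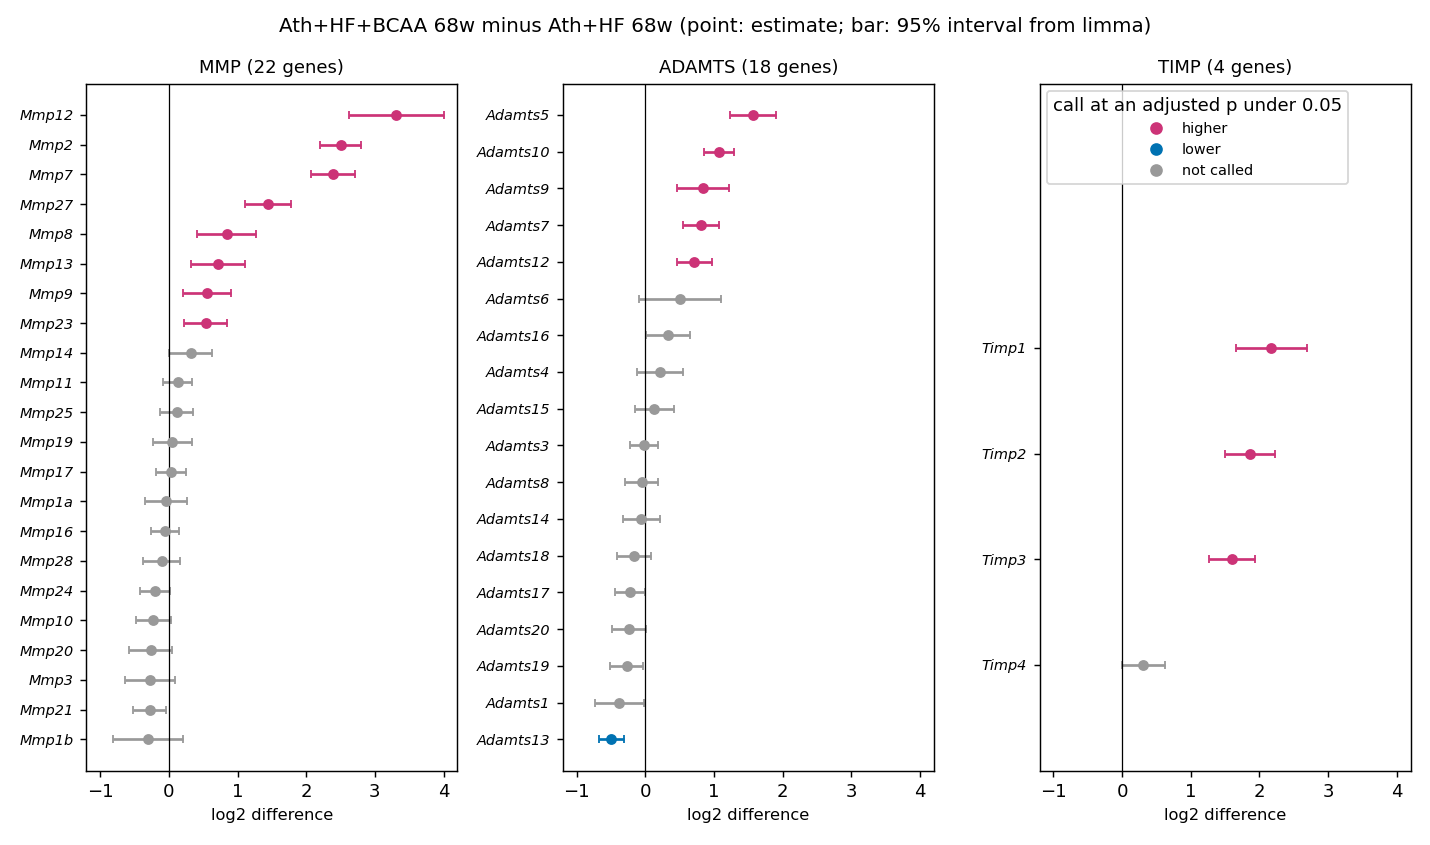
Log2 difference of Ath+HF+BCAA 68w minus Ath+HF 68w (horizontal axes) for the 22 MMP, 18 ADAMTS and 4 TIMP genes, with 95% intervals from limma and colors for the call. The called genes run from Mmp12 at 3.31 to Mmp23 at 0.54 on the higher side, and Adamts13 at -0.50 is the only one called lower.

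The signed difference, with BCAA minus without, was called higher at 68w than at 38w for 15 members and lower for none. In this test of the difference of the differences 20.6% of all genes were called, 12.9% higher and 7.67% lower. The 15 members were 8 MMP genes, 4 ADAMTS genes and Timp1, Timp2 and Timp3. For some, such as Mmp13 and Mmp23, the difference was below 0 at 38w and above 0 at 68w. For Mmp12 the difference changed by 3.56 (standard error 0.46), for Mmp2 by 2.58 (standard error 0.20), for Timp1 by 2.28 (standard error 0.34) and for Mmp7 by 2.25 (standard error 0.21). For Timp4 it was 0.53 (adjusted p = 0.0887 from limma). The 15 members are given with their values in the closing section.

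Set against their own 38w group, the Ath+HF+BCAA 68w arrays had 18 members higher and 2 lower, with 38.8% of all genes called (20.5% higher and 18.3% lower). With the array medians set equal 11 were higher and 4 lower, and with quantile normalization 11 and 1. Arrays did not overlap in 19 members that were higher and 4 that were lower, beside 52.5% of all genes. Timp3 led with 2.05 (standard error 0.16), followed by Mmp7 (1.79, standard error 0.15), Mmp2 (1.60, standard error 0.14), Timp2 (1.17, standard error 0.17), Adamts10 (0.94, standard error 0.10) and Adamts5 (0.89, standard error 0.16). Mmp23 (0.83, standard error 0.15), Adamts7 (0.74, standard error 0.12), Adamts12 (0.71, standard error 0.12) and Mmp9 (0.71, standard error 0.16) came next. Timp4 was higher here as well (0.48, standard error 0.15), a call that it lost with both scalings and without replicate 3 of either group. Mmp12 (0.36, standard error 0.33), Mmp13 (-0.25, standard error 0.18) and Timp1 (0.60, standard error 0.24), which had already been raised at 38w, were not called. Mmp19 and Adamts13 were lower by -0.40 and -0.23, and both calls were lost in several alternatives.

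Against basal 38w the Ath+HF+BCAA 68w arrays had 21 members higher and 2 lower, or 52.3% called, with 44.6% of all genes called (22.9% higher and 21.8% lower). The largest differences were those of Mmp12 (3.38, standard error 0.33), Mmp7 (2.75, standard error 0.15), Mmp2 (2.32, standard error 0.14), Timp1 (2.03, standard error 0.24), Timp3 (1.93, standard error 0.16) and Timp2 (1.65, standard error 0.17). Adamts5 (1.49, standard error 0.16), Mmp27 (1.29, standard error 0.16), Adamts10 (1.21, standard error 0.10) and Adamts12 (1.06, standard error 0.12) followed. The 2 lower genes were Mmp1a and Adamts13. Arrays did not overlap in 24 members that were higher and 2 that were lower, beside 56.2% of all genes.

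Lists from comparisons that share no arrays can be set side by side. All 7 members called higher in Ath+HF 38w against basal 38w were among the 16 called higher in Ath+HF+BCAA 68w against Ath+HF 68w, which is 100% of the former list and 43.8% of the latter. The 7 called higher in Ath+HF+BCAA 38w against basal 38w were all among the 9 called lower in Ath+HF 68w against Ath+HF 38w, 100% and 77.8%. Of the 7 called higher in Ath+HF 38w against basal 38w, 4 (Adamts12, Mmp2, Mmp27 and Mmp7) were among the 18 called higher in Ath+HF+BCAA 68w against Ath+HF+BCAA 38w, 57.1% and 22.2%. Of all genes, 19.8%, 20% and 20.5% were called in the named direction in these 3 68w comparisons, in the order given. The same overlaps were not computed over all genes, so whether they are particular to the family is not known.

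The balance of proteases and inhibitors was described by the mean log2 difference of each class from basal diet, in which each gene counts alike and dim genes are included. Most MMP genes had every group mean below the median of all genes, whereas among the TIMP genes only Timp4 did. The difference of the class means, and its sign, may therefore depend on dim genes, and means without them were not computed. On the Ath+HF 38w arrays it was 0.37 ± 0.07 (SD, n = 3) for the MMP genes, 0.14 ± 0.04 for the ADAMTS genes and 0.56 ± 0.09 for the TIMP genes. On the Ath+HF+BCAA 38w arrays it was 0.32 ± 0.06, 0.07 ± 0.11 and 0.40 ± 0.30, and replicate 2 was low for the TIMP genes (0.05). On the Ath+HF 68w arrays the values were 0.12 ± 0.07, 0.17 ± 0.05 and -0.02 ± 0.02, which became -0.07, -0.02 and -0.21 after array medians were set equal. Quantile normalization gave -0.02 for the MMP, 0.02 for the ADAMTS and -0.11 for the TIMP genes. On the Ath+HF+BCAA 68w arrays they were 0.63 ± 0.01, 0.40 ± 0.08 and 1.47 ± 0.06. The TIMP mean thus stood above the MMP mean on these arrays, and MMP minus TIMP was -0.84 ± 0.06 there, 0.13 ± 0.08 on Ath+HF 68w and -0.19 ± 0.04 on Ath+HF 38w. Quantile normalization gave -0.87, 0.08 and -0.19.

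**Figure D3:**
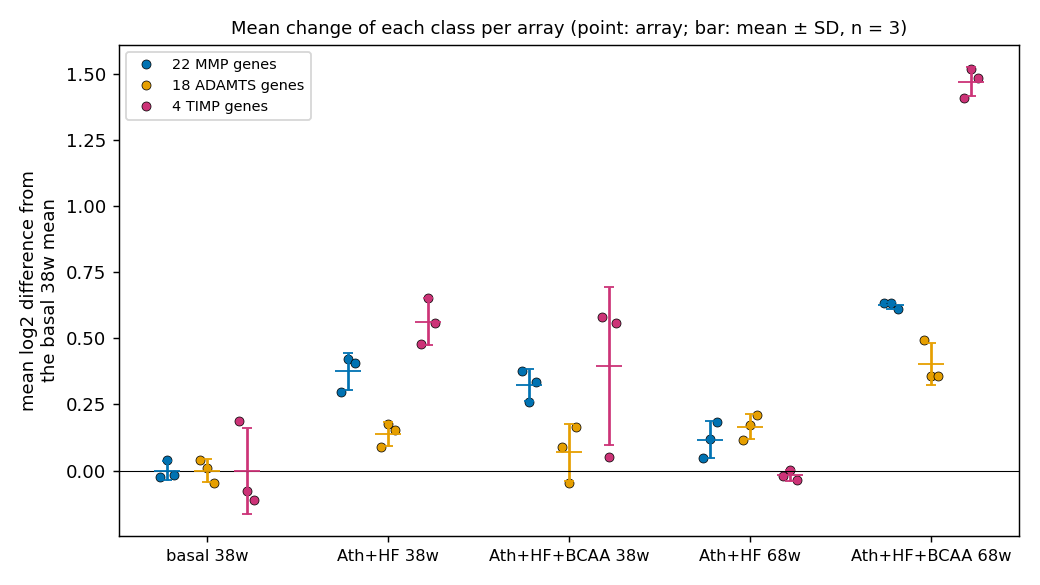
Mean log2 difference from the basal 38w mean (vertical axis) over the 22 MMP, 18 ADAMTS and 4 TIMP genes in the 5 groups (horizontal axis), with a point for each array and a bar for the mean ± SD (n = 3). The TIMP mean is highest on the Ath+HF+BCAA 68w arrays, at 1.41 to 1.52, above the MMP mean of 0.61 to 0.63.

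For 4 pairs of a protease and an inhibitor known to bind it or act with it, the difference of their changes was tested across arrays by a two-sided exact permutation test, for which 3 arrays against 3 allow no p below 0.1. At 68w Mmp2 rose more than Timp2 with BCAA (a difference of 0.64 in log2 units, with nonoverlapping arrays, exact p = 0.1), and was at 0.20 between basal 38w and Ath+HF 38w (exact p = 0.3). Mmp14 fell behind Timp2 in both, with -0.43 at 38w and -1.55 at 68w, and Mmp9 fell behind Timp1 with -1.22 and -1.62 (nonoverlapping arrays and exact p = 0.1 for each of the 4). Mmp9 is dim, with every group mean below the median of all genes. Adamts1, an aggrecanase that Timp3 can inhibit, fell behind Timp3 by -1.98 at 68w (exact p = 0.1), and was at 0.12 at 38w (exact p = 0.7), which turned to -0.05 without basal 38w replicate 2. No other ADAMTS gene was paired with Timp3. The aggrecanase Adamts5 rose by 1.57 with BCAA at 68w, beside 1.60 for Timp3, so the Adamts1 pair does not stand for the class. None of the 8 tests can pass an adjustment, and the smallest adjusted value over them lies above 0.1.

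On the chromosome 9 cluster the genes that changed were not neighbors of one kind. At 38w the 4 cluster genes called higher on Ath+HF, out of 10, were Mmp13, Mmp12, Mmp27 and Mmp7, with 6 genes of the cluster between or beside them not called, and of the other 12 MMP genes only Mmp2 was called, beside 4.23% of all genes. In Ath+HF+BCAA 68w against Ath+HF 68w 5 of 10 cluster genes were higher (Mmp13, Mmp12, Mmp8, Mmp27 and Mmp7) and 3 of the other 12, beside 19.8% of all genes called higher, so that the latter share was near that of all genes. Mmp3 and Mmp10, which carry the AP-1 letters shown above, had their highest means on Ath+HF 68w. Mmp3 was at 5.99, 6.08 and 6.28 there and at 5.77, 5.93 and 5.83 on Ath+HF+BCAA 68w, and Mmp10 was at 6.57, 6.64 and 6.59 and at 6.45, 6.38 and 6.30. Both are dim, and the genes of the cluster are similar in sequence, so the probes may read related transcripts.

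**Figure D4:**
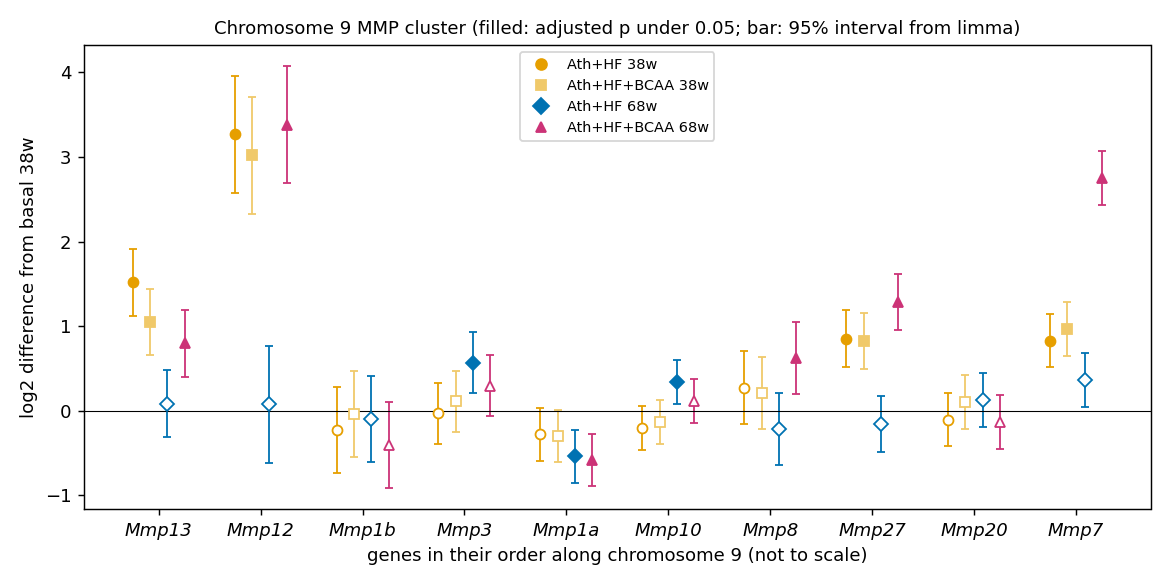
Log2 difference from basal 38w (vertical axis) of the 10 MMP genes of the chromosome 9 cluster in their order along the chromosome (horizontal axis, not to scale), with 95% intervals from limma, symbols for the 4 other groups and filled symbols for called genes. Mmp12 stands near 3 in all groups but Ath+HF 68w, and Mmp7 reaches 2.75 on Ath+HF+BCAA 68w.

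Members called in none of the 9 comparisons were Adamts1, Adamts3, Adamts4, Adamts8, Adamts18, Adamts20, Mmp16, Mmp17, Mmp1b, Mmp20, Mmp24 and Mmp28. Their differences between groups ran from -0.41 to 0.34, and in the difference of the BCAA differences Mmp1b was at -0.49 and Mmp20 at -0.48. In 11 of these 12 every group mean lay below the median of all genes. The exception, Adamts1, was at group means up to 8.66. The remaining 32 members were called in at least 1 comparison. Adamts3 was read by 16 transcript clusters and Adamts17 by 5, which did not all point the same way in Ath+HF 38w against basal 38w.

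The activators of the proenzymes followed in part. Of all genes 4.23% were called in Ath+HF 38w against basal 38w. In Ath+HF+BCAA 68w against Ath+HF 68w 36.2% were called, 19.8% higher and 16.4% lower. In Ath+HF 38w against basal 38w, 2 of the 8 genes of the plasminogen system and proprotein convertases were higher, Plau, or urokinase (0.96, standard error 0.15), and its receptor Plaur (0.59, standard error 0.10). In Ath+HF+BCAA 68w against Ath+HF 68w 3 were higher and 2 lower, among them Plau (1.49, standard error 0.15), Plat, the tissue plasminogen activator (1.29, standard error 0.13), and Pcsk6, a proprotein convertase (-0.67, standard error 0.09). Plau fell by 1.25 log2 units (standard error 0.15) in Ath+HF 68w against Ath+HF 38w. Of 7 other inhibitors and inducers none was called at 38w, and 2 were lower in Ath+HF+BCAA 68w against Ath+HF 68w, Tfpi2, a serine protease inhibitor of the matrix (-1.16, standard error 0.12), and Mug1, a relative of alpha-2-macroglobulin (-0.37, standard error 0.09). Timp1, Timp2 and Timp3 were called higher in that comparison. Tfpi2 was also lower in Ath+HF 68w against basal 38w (-0.64, standard error 0.12) and against Ath+HF 38w (-0.45, standard error 0.12), where Timp1 and Timp2 were lower too.

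Among 9 ADAM proteases, the membrane-bound relatives of the family, Adam8, known from macrophages and neutrophils, was the only one called in Ath+HF 38w against basal 38w (1.09, standard error 0.16). In Ath+HF+BCAA 68w against Ath+HF 68w 5 were higher and none lower, among them the sheddases Adam17 (1.19, standard error 0.13) and Adam10 (0.88, standard error 0.10) and again Adam8 (1.36, standard error 0.16). Of 6 ADAMTS-like proteins, which resemble ADAMTS but lack the protease, Adamtsl2 was higher in both of these comparisons (0.75, standard error 0.17, and 1.54, standard error 0.17). In the latter Adamtsl1 was higher (0.70, standard error 0.13) and Papln lower (-0.45, standard error 0.12). Of 9 matrix substrates 3 were higher in Ath+HF 38w against basal 38w, the fibrillar collagens Col1a2 (0.91, standard error 0.18), Col3a1 (0.68, standard error 0.15) and Col1a1 (0.81, standard error 0.18). In Ath+HF+BCAA 68w against Ath+HF 68w 6 were higher, among them Col1a2 (1.43, standard error 0.18), Col1a1 (1.38, standard error 0.18) and Col3a1 (1.11, standard error 0.15). None of the 9 was lower there, and 3 were lower in Ath+HF 68w against Ath+HF 38w. Beside these lists, 3.05% of all genes were called higher in Ath+HF 38w against basal 38w. In Ath+HF+BCAA 68w against Ath+HF 68w 19.8% were higher and 16.4% lower, and 20% were lower in Ath+HF 68w against Ath+HF 38w.

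Macrophage markers were higher both in Ath+HF 38w against basal 38w and in Ath+HF+BCAA 68w against Ath+HF 68w, and most markers of stellate, endothelial and biliary cells in the latter. Of all genes 3.05% were called higher and 1.18% lower in the former, and 19.8% higher and 16.4% lower in the latter. The log2 summed signal of 7 macrophage markers lay from 12.19 to 12.33 on basal diet, from 13.24 to 13.60 on Ath+HF 38w, from 12.99 to 13.53 on Ath+HF+BCAA 38w, from 11.47 to 11.72 on Ath+HF 68w and from 13.57 to 13.97 on Ath+HF+BCAA 68w. Of these markers 5 were higher in Ath+HF 38w against basal 38w, and 6 were higher in Ath+HF+BCAA 68w against Ath+HF 68w, with Lyz2 (3.02, standard error 0.19) and Cd68 (2.61, standard error 0.13) in front. At 38w on Ath+HF against basal diet 1 of 6 stellate cell, 0 of 5 endothelial, 0 of 4 biliary and 0 of 7 neutrophil markers were called. For 6 stellate cell and myofibroblast markers the sum lay from 10.44 to 10.71 on Ath+HF 68w and from 11.27 to 11.52 on Ath+HF+BCAA 68w, with 5 of 6 higher, led by Pdgfrb (1.57, standard error 0.15). For 4 biliary markers it lay from 9.38 to 9.67 and from 10.31 to 10.39, with 4 of 4 higher, led by Epcam (1.75, standard error 0.18). For 5 endothelial markers it lay from 11.04 to 11.32 and from 11.83 to 11.95, with 4 of 5 higher, led by Cdh5 (0.92, standard error 0.14). For 7 neutrophil markers the sum on Ath+HF+BCAA 68w spread from 9.43 to 11.45, and 1 was higher, Ngp (2.17, standard error 0.63). Of 6 hepatocyte markers 3 were lower in Ath+HF+BCAA 68w against Ath+HF 68w. The lowest group mean of any marker, in the neutrophil list, was 5.498 on basal diet. Fewer cells of a type and less RNA per cell cannot be told apart in whole liver, and the part of these markers in the protease differences was not tested.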

How the data were processed

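Total RNA from frozen liver was measured on Mouse Gene 1.0 ST arrays of Affymetrix. The deposited log2 values are those the authors obtained by RMA with Expression Console (no version known here). The values were not normalized again in the main setting. Groups were taken from the labels of the arrays. Of 35556 transcript clusters 21789 carried 1 symbol, and 19938 genes were each represented by their brightest cluster. Group means were estimated with lmFit and moderated with eBayes of limma 3.58.1 under R 4.3.3 (residual degrees of freedom, 10), for 9 comparisons in all, with Benjamini-Hochberg adjustment over all genes. The fit was tested on simulated data. The members were taken by their symbols alone, but the family and the gene lists were chosen with earlier results of these data known. Named with values were the TIMP genes, up to 10 called members with the largest difference per comparison, members called in the difference of the BCAA differences, and up to 3 called genes of another list. Values of single arrays are given for the TIMP genes and for called members with a difference of at least 1. Array values of Mmp3, Mmp8, Mmp9, Mmp10 and Adamts13, and the markers named, were chosen after their values were seen. Markers were summed on the linear scale. Pairs of genes were compared by exact permutation tests. Alternatives were other scalings, the mean of a gene's clusters, no dim genes, robust moderation with a trend, array weights, a replicate block, the groups alone, the methods' analysis of variance (Bonferroni over pairs of groups), and leaving out each array. Some genes of the lists are not analysed here. Promoters are from RefSeq.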

Additional observations from a re-analysis of the deposited data

Results flagged for a closer look

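For 15 members the signed difference, with BCAA minus without, changed between 38w and 68w. By the test of the difference of the differences (limma, Benjamini-Hochberg adjusted over all genes) each was higher at 68w. Among the MMP genes the change of the log2 difference was 3.56 for Mmp12, 2.58 for Mmp2, 2.25 for Mmp7, 1.47 for Mmp27, 1.18 for Mmp13, 0.92 for Mmp23, 0.91 for Mmp8 and 0.77 for Mmp9. Among the ADAMTS genes it was 1.51 for Adamts5, 1.10 for Adamts10, 0.93 for Adamts12 and 0.86 for Adamts7. Among the inhibitors it was 2.28 for Timp1, 1.98 for Timp2 and 1.83 for Timp3. Mmp8 and Mmp9 lost the call when single arrays were left out, with adjusted p up to 0.0771 and 0.0625, and the other 13 were called in each limma alternative. All of these values rest on the labels of both 68w groups.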

How the results depend on the processing

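Calls of Ath+HF 68w against basal 38w depended on the processing most. Its 7 calls became 2 with the array medians set equal, 3 with quantile normalization, 4 without dim genes (19 members left) and 1 by the methods' analysis of variance, and ran from 3 to 9 with each array left out. Under equal medians the typical gene went from 0.05 to -0.14 in this comparison, and from 0.01 to -0.18 in Ath+HF+BCAA 68w against basal 38w. Elsewhere, Ath+HF+BCAA 38w against basal 38w had 3 calls in a fit of both groups alone, analysis of variance called 1 member between the 38w groups with and without BCAA, array weights called 27 between the 68w groups (19 higher and 8 lower, with 50.8% of all genes called), and Ath+HF+BCAA 68w against Ath+HF+BCAA 38w had 12 calls with quantile normalization and 13 by analysis of variance. The cause of these shifts was not tested. Adamts1 minus Timp3 in Ath+HF 38w against basal 38w ran from -0.05 to 0.30 with each array left out, and was below 0 (-0.05035) without basal 38w replicate 2. No called member changed sign. Of the 17 calls between the 68w groups 16 were kept with each array left out and in each limma alternative that tested the gene. Mmp8, a dim gene, was not tested without dim genes. Of the 7 calls in Ath+HF 38w against basal 38w 6 were kept in the same way. Against basal 38w it was 3 of 7 for Ath+HF+BCAA 38w, 1 of 7 for Ath+HF 68w and 16 of 23 for Ath+HF+BCAA 68w. Ath+HF 68w against Ath+HF 38w kept 8 of 13, and Ath+HF+BCAA 68w against Ath+HF+BCAA 38w kept 11 of 20. Replicate numbers did not pair the samples (correlations of deviations from -0.16 to 0.18), and with the replicate number as a block the 17 calls between the 68w groups stayed 17, the 23 of Ath+HF+BCAA 68w against basal 38w became 22 and the 7 of Ath+HF 38w against basal 38w stayed 7. For 25 members every group mean lay below the median of all genes, and the background of the array was not measured here.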
